A study of Mus musculus with 2 samples.

Results

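The 33 lysosomal genes described here code for proteases and other acid hydrolases, for carriers and membrane proteins of the lysosome, for subunits of its proton pump and for the transcription factors that act on such genes. They were a named list of symbols, and all of them were found among the 32285 genes of both matrices. No cutoff on a measured value picked them, but these genes were chosen with earlier results of these data known. Each was read as raw counts of unique molecular identifiers (UMIs, one tag per captured transcript molecule), alone and as a summed share of all UMIs, in cell classes named from marker genes. A lysosome is an acid compartment in which a proton pump, the V-ATPase, keeps the pH low, and in which cathepsins, glycosidases and lipases break down what the cell has taken up or set aside by autophagy. Macrophages are rich in it because they clear dead cells, and neutrophils carry related enzymes in granules. The factors TFEB, TFEC and MITF bind short E-box sequences in front of many of these genes.

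The study asked how feeding the gut bacterium Akkermansia muciniphila acts on innate immune cells inside liver tumours. The AKK library came from C57BL/6 mice given 5000000000 CFU of the bacterium by mouth, and the PBS library from C57BL/6 mice given the saline vehicle. Feeding began 2 weeks before a methionine- and choline-deficient (MCD) diet, which was given for 2 weeks before RIL-175 cells were placed in the liver. Feeding paused for 6 days after surgery and then went on to the end. All animals shared the diet, the surgery and the luciferase-labelled RIL-175 tumour, a mouse hepatocellular carcinoma line, so no library is from a liver without diet or tumour. Live CD45+ leukocytes were sorted from the tumours. The number of mice behind each library is not stated in the labels.

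With 1 library per group no difference was tested. Treatment, mice and library preparation cannot be told apart, and the 95% intervals given with ratios reflect the counting of molecules alone, not differences between mice. A member was called higher or lower past a 1.5-fold change in CPM (its UMIs scaled to 1000000 UMIs of the class), where both libraries together held at least 50 of its UMIs. A CPM is not divided by gene length, so genes are set side by side only as parts of the sum.

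The matrices held 6610 AKK and 5088 PBS barcodes, of which 6172 AKK and 4636 PBS cells were kept, with medians of 6367.5 and 6747 UMIs. Mitochondrial content above the limit removed 93 AKK and 255 PBS barcodes. The libraries shared 8 barcode sequences. Of 25 clusters, 24 were named from markers and fell into 13 classes, while a shallow cluster of 22 AKK and 158 PBS cells stayed unnamed. The cluster named cDC2-like carried markers of cDC1 almost as strongly. Although the cells were sorted on CD45, 115 AKK and 159 PBS cells were tumour/epithelial-like. Free RNA was followed with the C1q genes of macrophages: T-like cells, which should lack them, held 0.794% (AKK) and 1.27% (PBS) of the macrophage-like C1q level, neutrophil-like cells 1.23% and 1.72%, and monocyte-like cells 2.10% and 3.41%.

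Promoter windows from RefSeq (GRCm38.p6, 250 bases before to 50 after each annotated start) were matched by symbol for 27 of the 33 members and gave 36 windows. They were searched for the E-box CACGTG and for TCACGTGA, the core of the element that TFEB binds in lysosomal genes. Each motif is its own reverse complement, so both strands are read at once, and every TCACGTGA holds a CACGTG. The shorter motif stood in 8 of the 36 windows (22.2%), of 8 genes, against 2349 of all 32851 windows (7.15%). The longer stood in 4 of the 36 windows (11.1%), those of Ctsa, Ctsd, Mcoln1 and Atp6v1a, against 320 of all windows (0.974%). A window each of Lamp1, Glb1, Lgmn and Ctsl held only the shorter motif. A further window of Ctsa and a further window of Lgmn held neither motif. A match describes letters, not binding. Whole windows are shown for Ctsd and Ctsl, the members with a motif that were lower past 1.5-fold in AKK monocyte-like cells, and 60-base stretches for the other 3 genes with the longer motif. Lgmn was higher past 1.5-fold in those cells, and its windows are not shown. The shorter motif stood in its window chr12:102439043-102439342, inside the gene. Neither motif stood in its window chr12:102439679-102439978, which spans the annotated 5′ end of the gene. The windows of Mitf and Tfec, also lower there, held neither motif. Ctsa, Mcoln1, Atp6v1a, Lamp1 and Glb1, which held a motif, did not pass 1.5-fold there. CACGTG is in capitals, and each sequence runs 5′ to 3′ on the gene's strand.
Ctsd, chr7:142387778-142388077, minus strand: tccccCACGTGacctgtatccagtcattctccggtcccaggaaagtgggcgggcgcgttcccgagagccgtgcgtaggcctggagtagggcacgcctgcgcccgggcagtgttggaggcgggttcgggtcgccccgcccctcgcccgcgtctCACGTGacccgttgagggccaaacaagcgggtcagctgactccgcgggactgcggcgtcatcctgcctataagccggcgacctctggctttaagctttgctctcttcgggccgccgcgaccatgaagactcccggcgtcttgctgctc
Ctsl, chr13:64370471-64370770, minus strand: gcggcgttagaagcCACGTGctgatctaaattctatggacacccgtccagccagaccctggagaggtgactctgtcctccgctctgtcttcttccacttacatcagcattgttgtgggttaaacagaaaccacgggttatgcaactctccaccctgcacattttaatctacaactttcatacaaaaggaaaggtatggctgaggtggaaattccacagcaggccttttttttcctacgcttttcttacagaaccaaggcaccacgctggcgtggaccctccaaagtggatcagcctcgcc
Ctsa, chr2:164833734-164833793, plus strand: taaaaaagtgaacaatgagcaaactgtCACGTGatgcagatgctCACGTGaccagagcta
Mcoln1, chr8:3500421-3500480, plus strand: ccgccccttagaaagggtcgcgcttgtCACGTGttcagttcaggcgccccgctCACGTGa
Atp6v1a, chr16:44139358-44139417, minus strand: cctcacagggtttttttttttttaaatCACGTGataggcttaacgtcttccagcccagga
The Ctsd window held CACGTG at positions 6 and 153, counted from 1 at its 5′ end, and the second match is part of the longer motif. The single match of Ctsl lay at position 15, at -236 from the RefSeq start of its window. That window lies inside the gene span of GENCODE M21 (chr13:64359337-64370890), so the annotations place the start differently.

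The 33 genes took the largest share of UMIs in macrophage-like cells, 1.49% in AKK and 1.65% in PBS. Monocyte-like cells followed with 1.14% and 1.08%, and pDC-like cells with 1.04% in AKK and 1.05% in PBS. The share was 0.675% and 0.637% in cDC2-like cells, 0.514% and 0.433% in myeloid precursor-like cells, and 0.421% and 0.410% in neutrophil-like cells. Lymphocytes stood at the low end, with 0.256% and 0.259% in B-like, 0.182% and 0.169% in NK/ILC1-like, and 0.1685% and 0.1683% in T-like cells. The order of these 9 classes was the same in both libraries, but in PBS the intervals of monocyte-like and pDC-like cells, and of NK/ILC1-like and T-like cells, overlapped. Tumour/epithelial-like cells (0.319% and 0.335%) and plasma-like cells (0.193% and 0.215%) also kept their place. The remaining named classes changed place. Basophil/mast-like cells stood under neutrophil-like cells in AKK (0.407%), with overlapping intervals, and over myeloid precursor-like cells in PBS (0.550%). Gamma-delta T-like cells, at 0.174% and 0.172%, stood under NK/ILC1-like cells in AKK and over them in PBS, with overlapping intervals.

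**Figure D1:**
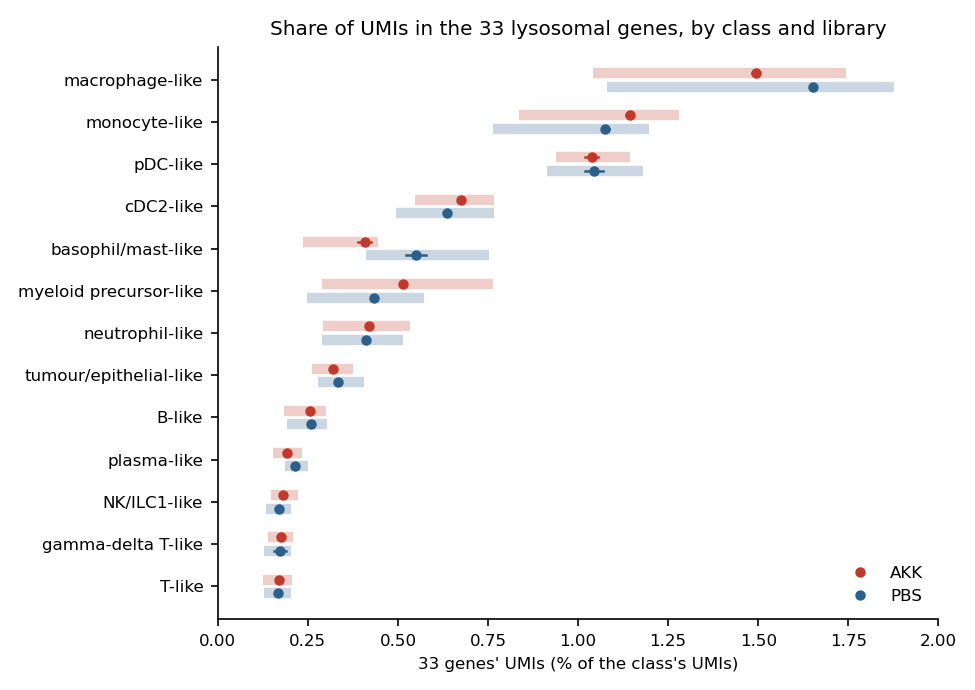
Summed UMIs of the 33 genes as a percentage of all UMIs of each class (x axis) for the 13 named classes (y axis), with the AKK library above the PBS library. Points are shares of the summed UMIs, thin lines are 95% counting intervals, and pale bars span the lower to the upper quartile of single cells; macrophage-like cells lead with 1.49% and 1.65%.

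Macrophage-like cells had the highest level of 16 members in AKK and of 20 in PBS, 15 of them in both. Among these were Ctsb, Ctsc, Ctss and Lgmn, cysteine proteases of endosomes and lysosomes, and Mitf. Others peaked elsewhere. Npc1, the membrane protein that exports cholesterol from lysosomes, reached 616 and 758 CPM in pDC-like cells, against 59.0 and 53.3 CPM in macrophage-like cells of the AKK and PBS libraries. Psap, the precursor of the saposins that help digest sphingolipids, Grn, Ctsh and Atp6v1h also peaked in pDC-like cells in both libraries. Cd63, a tetraspanin of late endosomes and secretory granules, reached 1256 and 2392 CPM in the 53 AKK and 29 PBS basophil/mast-like cells. That class joins a cluster led by Mcpt1 and Mcpt2 (16 AKK and 28 PBS cells) and one led by Prss34 and Mcpt8 (37 and 1). The AKK and PBS values of Cd63 therefore come from different mixtures of cells. Lamp2, a heavily glycosylated protein of the lysosome membrane, was highest in neutrophil-like cells (684 and 563 CPM), while Npc2 and Glb1 were lowest there. Tfeb was highest in B-like cells, at 75.6 and 65.7 CPM.

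**Figure D2:**
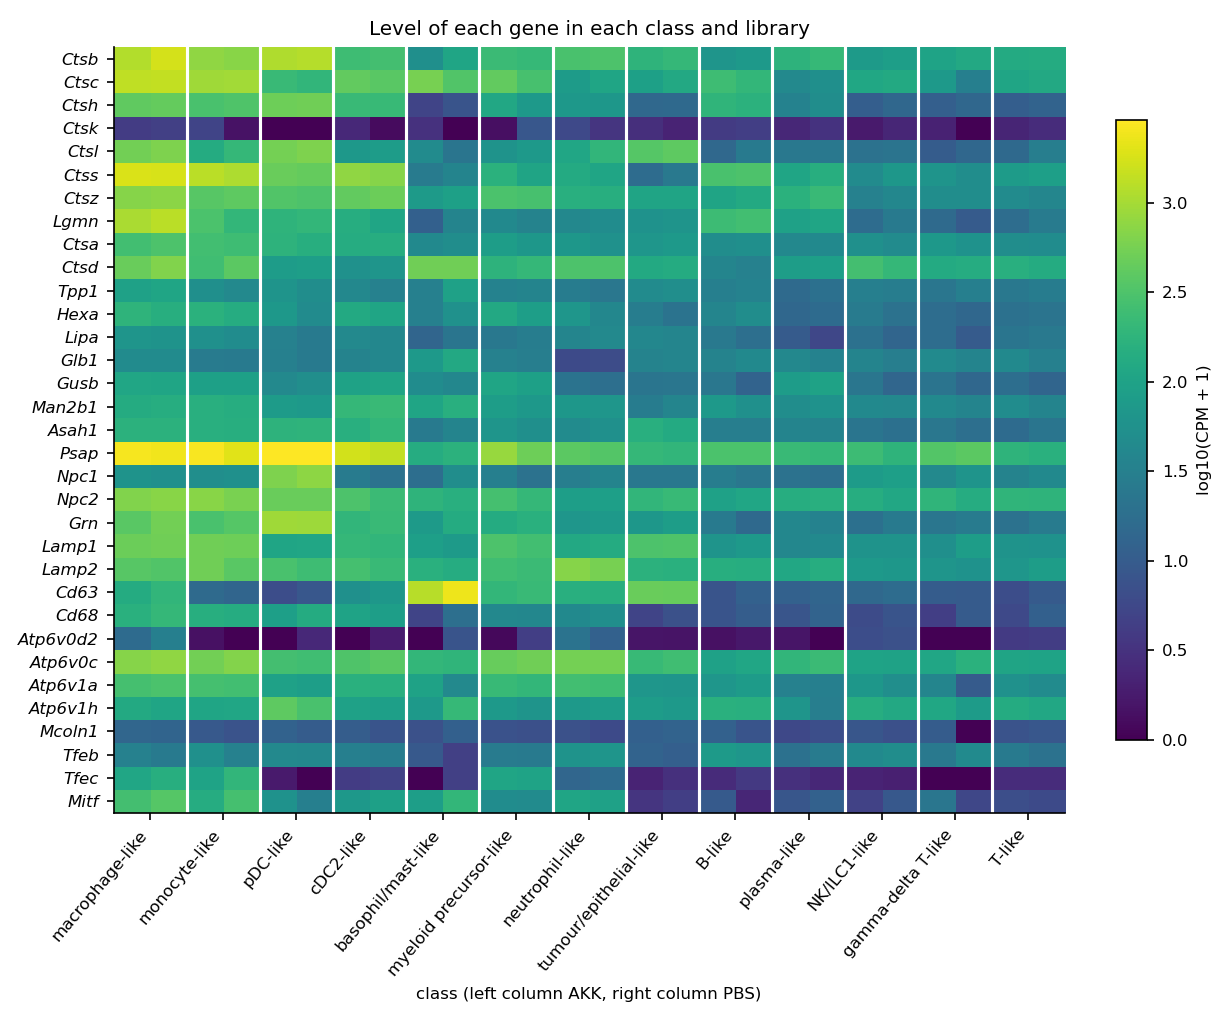
Level of each of the 33 genes (rows, ordered by role) in each of 13 classes (columns in pairs, AKK left and PBS right), coloured by log10(CPM + 1). Macrophage-like cells are brightest for 16 rows in AKK and 20 in PBS, whereas Cd63 is brightest in basophil/mast-like cells and Npc1 in pDC-like cells.

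In macrophage-like cells (531 AKK and 619 PBS) the summed share was lower in the AKK library, at 0.903 times the PBS share (0.896 to 0.910), and 23 of the 33 members were lower. The proteases carried most of this. The 8 cysteine cathepsins and legumain summed to 0.704% of UMIs in AKK and 0.804% in PBS, a ratio of 0.875 (0.866 to 0.885), and Ctsa, Ctsd and Tpp1 together to a ratio of 0.784 (0.760 to 0.808). The 3 MiT factors summed to 0.767 times their PBS share. The median member had a log2 ratio of -0.10, while the median of all 11008 genes measured in this class was 0.11 and 63.4% of those genes were higher in AKK. That general shift was 0.14 in monocyte-like cells and 0.07 in neutrophil-like cells; scaling that removes it lowers every ratio given here by about as much.

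Only Atp6v0d2 passed 1.5-fold in these cells: 1 of 33 members was lower (3.03%), against 6.94% of all genes, and none was higher, against 7.63% of all genes. Atp6v0d2, the d2 subunit of the proton pump's membrane sector, found in osteoclasts and in some macrophages, had 15.2 CPM in AKK (113 UMIs) and 30.4 CPM in PBS (339 UMIs), a ratio of 0.498 (0.399 to 0.618). At a matched depth of 2756 UMIs it was seen in 3.32% of AKK and 4.86% of PBS cells, and without thinning in 6.97% and 13.9%; T-like cells at the same depth gave 0.705% and 0.991%. Just short of the limit was Ctsb, cathepsin B, with 1176 CPM in AKK and 1757 CPM in PBS (0.670, 0.653 to 0.687). Cd63 (135 and 193 CPM), Grn, which codes for progranulin (380 and 540 CPM), and Ctsd, the aspartic protease cathepsin D (478 and 642 CPM), were also lower, at ratios of 0.703, 0.703 and 0.744. Under both other scalings Ctsb, Cd63 and Grn passed the limit too, so that 4 members were lower, against 9.22% of all genes with TMM scaling and 9.32% with median-of-ratios scaling.

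Psap, Ctss, Hexa and Tfeb were level or higher in AKK macrophage-like cells, while Lgmn, at 1044 and 1282 CPM, was lower (0.815, 0.792 to 0.838). Psap gave 17.4% of the members' UMIs in AKK and 14.8% in PBS, with 2598 and 2448 CPM. Ctss, cathepsin S, which trims the invariant chain of MHC class II, had 1834 and 1802 CPM (1.02, 0.996 to 1.04). Hexa, the alpha subunit of beta-hexosaminidase, had 180 CPM in AKK and 149 CPM in PBS (1.21, 1.12 to 1.30), and Tfeb 32.1 and 25.7 CPM (1.25, 1.05 to 1.49). The summed markers of macrophages were lower as well, at 0.682% in AKK and 0.989% in PBS, as was the median mitochondrial content, at 2.17% and 2.72%. Their part in these differences was not tested.

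Without scaling for the general shift, the lower macrophage share was not seen inside finer clusters. At a clustering resolution of 2.0, with the members left out of the genes used to cluster, 4 finer clusters held at least 20 macrophage-like cells of each library, and in all 4 the AKK share was above the PBS share, by ratios of 1.02 to 1.06. Finer cluster 1, led by Mmp13, C1qa, Apoe and Mrc1, had the highest share, 2.13% in AKK and 2.10% in PBS, and held 57 AKK and 184 PBS cells. Finer cluster 6, led by Mmp12 and MHC class II genes such as H2-Eb1, had the lowest, 1.23% and 1.16%, and held 232 AKK and 169 PBS cells. Finer cluster 2 (177 and 182 cells) stood between, at 1.58% and 1.53%; it was led by Arg1 and also by the monocyte markers Fn1 and F13a1, and carries no class name at that resolution. Finer cluster 7 was shallow, with 48 AKK and 43 PBS cells, and the interval of its ratio (0.966 to 1.094) included 1. With the finer clusters given the same weights in both libraries, a calculation added after the data were seen, the log2 ratio of the share was 0.041, where the sum over all cells gave -0.15. Over the whole class the general shift was 0.109 by TMM and 0.112 by median-of-ratios scaling, larger than 0.041. Neither scaling was applied inside the finer clusters, so the direction of their ratios under scaling was not tested.

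Atp6v0d2 followed the same layout. In finer cluster 1 it stood at 52.7 CPM in AKK and 58.3 CPM in PBS (0.904, 0.684 to 1.18). It stood at 20.7 and 22.2 CPM in finer cluster 2 (0.930, 0.615 to 1.39), and at 0.524 and 1.77 CPM in finer cluster 6, from 2 and 5 UMIs. The intervals of all 3 ratios include 1. In the shallow finer cluster 7 it had 1 UMI in AKK and 12 in PBS (0.117, 0.00274 to 0.791). A few members kept their direction in all 4 finer clusters. Psap was higher in AKK in each, for example 3857 against 3065 CPM in finer cluster 1 and 2273 against 1778 CPM in finer cluster 6, and so were Hexa, Npc1, Glb1 and Atp6v1h. Ctsb, Cd68, Atp6v0c and Atp6v0d2 were lower in AKK in each; Ctsb had 2174 CPM in AKK and 2719 CPM in PBS in finer cluster 1. Except for Psap, each of these genes had an interval that included 1 in at least 1 of finer clusters 1, 2 and 6, and in the shallow finer cluster 7 all but that of Atp6v0d2 did. Finer clusters share their libraries and are no replicates.

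**Figure D3:**
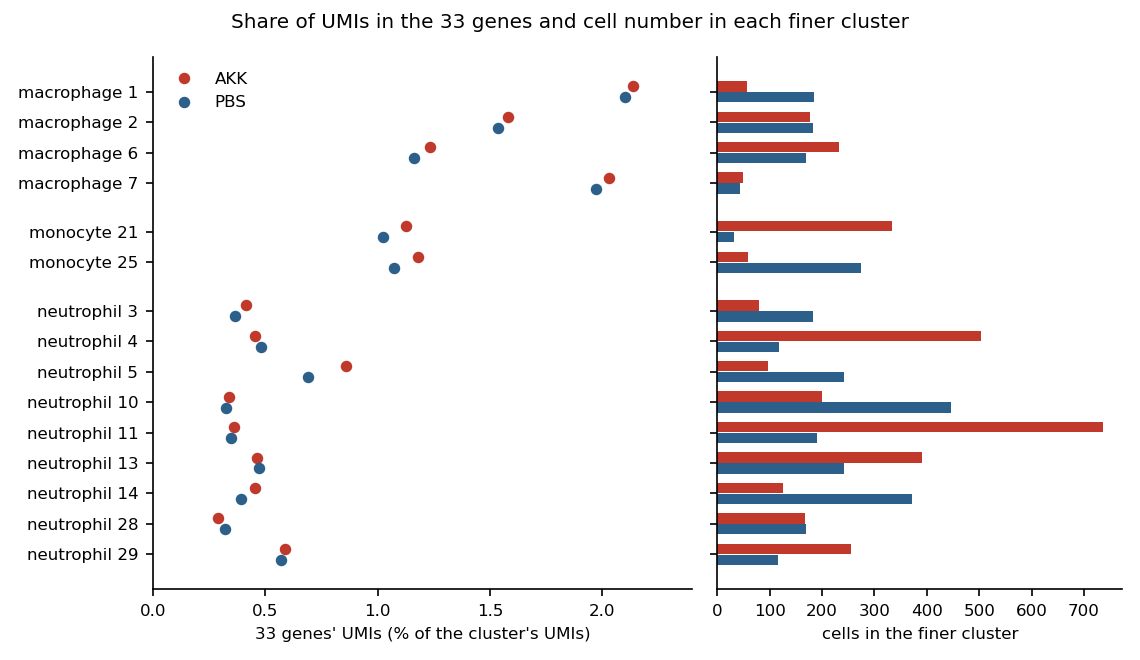
Left, UMIs of the 33 genes as a percentage of each finer cluster's UMIs in AKK (red, above) and PBS (blue, below); right, the number of cells of each library in it. In the 4 macrophage finer clusters the AKK point lies right of the PBS point, while the cluster with the highest share holds 57 AKK and 184 PBS cells.

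In monocyte-like cells (417 AKK and 314 PBS) the share was 1.063 times the PBS share (1.050 to 1.076), a direction that reversed under TMM and median-of-ratios scaling, at log2 ratios of -0.026 and -0.057. Of 31 members measured, 19 were higher and 12 lower; Ctsk and Atp6v0d2 had too few UMIs. Past 1.5-fold, 4 members were lower (12.9%), against 7.97% of all genes, and 2 were higher (6.45%), against 13.6% of all genes. Mitf, a basic helix-loop-helix factor that also drives osteoclast and mast cell genes, had 137 CPM in AKK and 278 CPM in PBS (0.492, 0.447 to 0.542). Tfec, its relative in the macrophage lineage, had 102 and 192 CPM (0.531, 0.474 to 0.594). Both were lower in AKK by more than the other members, while Tfeb was the reverse, with 53.9 CPM in AKK and 32.7 CPM in PBS (1.65, 1.34 to 2.04).

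At a matched depth of 3431 UMIs, Mitf was seen in 29.6% of AKK and 52.0% of PBS monocyte-like cells, and without thinning in 48.2% and 74.5%; T-like cells at that depth gave 1.83% and 1.82%. Ctsd had 250 CPM in AKK and 388 CPM in PBS (0.644, 0.598 to 0.694), and Ctsl, cathepsin L, 135 and 204 CPM (0.662, 0.597 to 0.733). Lgmn, legumain, which cuts after asparagine and matures some cathepsins, was higher, with 307 CPM in AKK and 197 CPM in PBS (1.56, 1.43 to 1.70). Short of the limit, Lamp2 had 525 and 380 CPM (1.38, 1.30 to 1.47) and Psap 2674 and 2034 CPM (1.31, 1.28 to 1.35). Ctsk, cathepsin K, the collagen-cutting protease of osteoclasts, had 20 UMIs in AKK and 2 in PBS, a ratio of 8.71 with an interval of 2.12 to 76.9.

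The calls in monocyte-like cells moved with the clustering. The libraries lay mostly in different finer clusters: finer cluster 21 held 333 AKK and 31 PBS cells, and finer cluster 25 held 59 AKK and 275 PBS cells. Neutrophil markers summed to 0.268% of UMIs in AKK and 0.658% in PBS monocyte-like cells, and the median mitochondrial content was 3.30% and 4.93%; their part was not tested. Mitf had 103 CPM in AKK and 173 CPM in PBS in finer cluster 21 (0.595, 0.419 to 0.872) but 272 and 287 CPM in finer cluster 25 (0.948, 0.806 to 1.11). Tfec was lower in both, at ratios of 0.571 and 0.774. Tfeb had opposite directions, 52.8 CPM in AKK and 102 CPM in PBS in finer cluster 21, from 208 and 20 UMIs, against 49.6 and 28.7 CPM in finer cluster 25. Lgmn was higher in both, with 293 and 214 CPM in finer cluster 21 and 337 and 190 CPM in finer cluster 25. Tfeb kept its call under 6 of 12 alternatives and Lgmn under 4 of 12, with log2 ratios from -0.38 to 0.85 and from -0.05 to 0.70; Mitf kept it under 11 and Tfec under 10. With finer clusters given the same weights in both libraries none of the 4 lower calls held (log2 ratio of Mitf -0.31, of Tfec -0.57), against 12% of all genes lower. With these weights 4 of 31 members were higher, against 15.1% of all genes. The PBS levels of Mitf and Tfec were higher in finer cluster 25, where AKK cells were few, than in finer cluster 21.

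**Figure D4:**
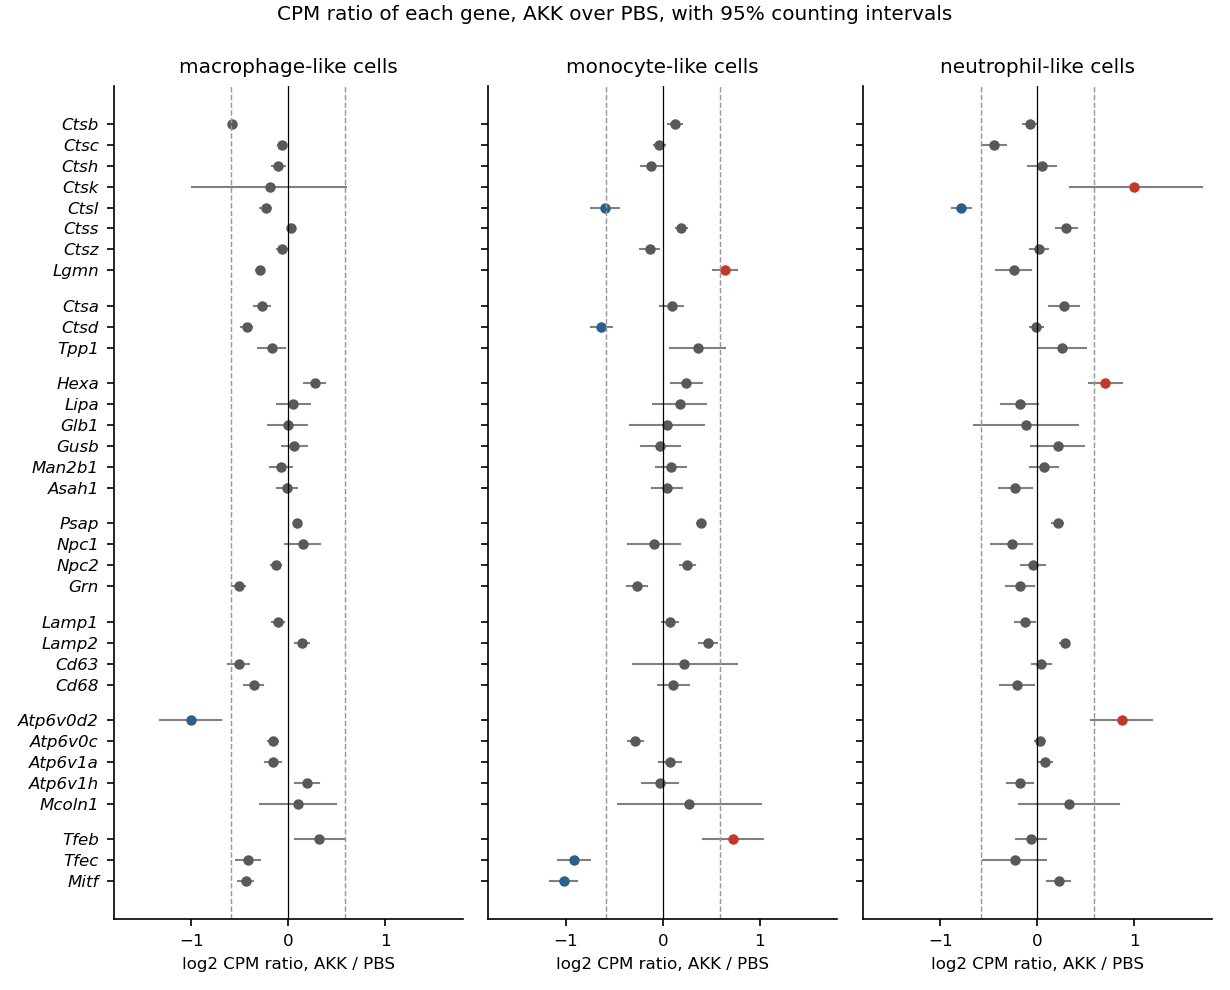
log2 ratio of CPM, AKK over PBS, of each member (rows, in blocks by role) in 3 classes, with 95% counting intervals; dashed lines mark 1.5-fold, red points are called higher and blue points lower. Macrophage-like cells have 1 blue point (Atp6v0d2), monocyte-like cells 2 red and 4 blue, and neutrophil-like cells 3 red and 1 blue.

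In neutrophil-like cells (2570 AKK and 2076 PBS) the members' share was nearly level, at 1.026 times the PBS share (1.013 to 1.039), and it turned to log2 ratios of -0.021 and -0.029 under TMM and median-of-ratios scaling. Of 33 members, 17 were higher and 16 lower. Past 1.5-fold, 3 were higher (9.09%), against 8.26% of all genes, and 1 was lower (3.03%), against 4.46% of all genes; both shares are near the background. Lamp2 gave 16.3% of the members' UMIs in AKK and 13.7% in PBS, with 684 and 563 CPM (1.22, 1.18 to 1.26). Atp6v0c, which forms the proton-carrying ring of the pump, gave 13.2% and 13.3%, with 556 and 547 CPM (1.02, 0.983 to 1.05).

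Ctsl was the lower gene, with 111 CPM in AKK and 191 CPM in PBS (0.581, 0.542 to 0.622). It was lower in AKK in all 9 finer clusters of neutrophil-like cells with at least 20 cells of each library, from 56.1 and 107 CPM in finer cluster 11 to 431 and 608 CPM in finer cluster 5, where Hspa1a and Hspa1b, heat shock genes, led. In finer clusters 3, 10 and 14 the interval of the ratio included 1; in finer cluster 10 the values were 123 and 126 CPM (0.981, 0.793 to 1.21). Free macrophage RNA, taken as the macrophage-like level times the C1q percentage, would account for 5.88% of its level in AKK and 5.61% in PBS. At a matched depth of 2327 UMIs Ctsl was seen in 17.7% of AKK and 25.8% of PBS cells, and without thinning in 27.2% and 40.9%; T-like cells gave 3.52% and 5.85%. Ctsl was lower in AKK in T-like cells as well, at 14.3 and 28.9 CPM (0.494, 0.384 to 0.636), and in B-like cells, at 13.7 and 24.9 CPM, from 32 and 36 UMIs. Free macrophage RNA would account for 29.6% of the T-like level in AKK and 27.4% in PBS. It was not estimated for B-like cells. With finer clusters weighted alike the log2 ratio of Ctsl in neutrophil-like cells was -0.53, short of 1.5-fold. The gene lies at chr13:64359337-64370890 on the minus strand (GRCm38), with Gm47123 annotated on the other strand.

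Hexa was higher in AKK neutrophil-like cells, with 64.4 CPM against 39.7 CPM in PBS (1.62, 1.45 to 1.83), and it was higher in all 9 finer clusters. The values ranged from 34.4 to 131 CPM in AKK and from 13.3 to 78.85 CPM in PBS, and the intervals in finer clusters 4, 10 and 28 included 1. At the matched depth it was seen in 12.7% of AKK and 8.14% of PBS cells, and without thinning in 20.97% and 16.5%; T-like cells gave 4.18% and 4.59%. It stayed past 1.5-fold under all 12 alternatives. Tmem202 is annotated opposite Hexa at chr9:59539540-59565109, and the labels do not say whether counting used strand. Ctsk was also higher, on few UMIs, with 4.90 CPM in AKK (58 UMIs) and 2.45 CPM in PBS (29 UMIs), a ratio of 2.00 (1.26 to 3.24); 29 of the AKK UMIs were in finer cluster 11.

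Atp6v0d2 was higher in AKK neutrophil-like cells, the opposite of macrophage-like cells, with 20.2 CPM in AKK (239 UMIs) and 11.1 CPM in PBS (131 UMIs), a ratio of 1.83 (1.47 to 2.28). Most of it came from finer clusters 29 and 5 in both libraries, less completely in PBS than in AKK. In finer cluster 29, led by Cstdc4, Cxcl3 and Acod1, it had 161 CPM in AKK and 94.8 CPM in PBS (1.70, 1.26 to 2.31), from 256 and 115 cells. In finer cluster 5 it had 128 and 40.3 CPM (3.17, 2.04 to 4.91), from 97 and 241 cells. The other 7 finer clusters stayed at or below 4.61 CPM in AKK and 4.70 CPM in PBS. Free macrophage RNA would account for 0.922% of its neutrophil level in AKK and 4.74% in PBS. At the matched depth it was seen in 2.22% of AKK and 1.45% of PBS cells, and without thinning in 2.92% and 2.17%, with 0.589% and 0.833% in T-like cells. The gene spans chr4:19876841-19922605 on the minus strand, and no other gene of the matrices overlaps it.

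**Figure D5:**
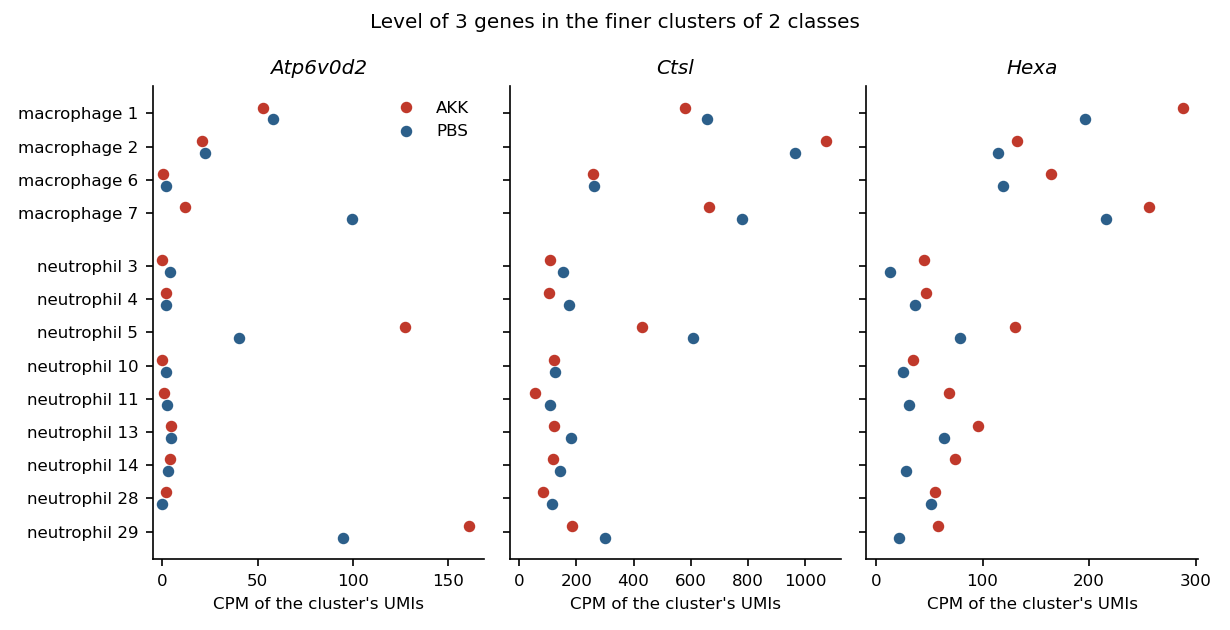
CPM of Atp6v0d2, Ctsl and Hexa in each finer cluster of macrophage-like and neutrophil-like cells, AKK (red) above PBS (blue). Among neutrophils, Atp6v0d2 stands out in finer clusters 5 and 29 (128 and 161 CPM in AKK, 40.3 and 94.8 CPM in PBS), Ctsl is lower and Hexa higher in AKK in all 9.

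In myeloid precursor-like cells (117 AKK and 128 PBS, led by Camp, Prtn3 and Elane) the share was 1.187 times the PBS share (1.167 to 1.208), and 24 of 31 members were higher. Single cells varied widely, with quartiles of 0.289% to 0.764% in AKK and 0.248% to 0.572% in PBS. At resolution 2.0 the class split into finer clusters 8 and 9. Finer cluster 8, led by Camp and Ngp, held 29 AKK and 55 PBS cells. Finer cluster 9, led by Prtn3 and Mpo, held 88 and 73. The share inside each was not computed, so the part of this mixture was not tested. Past 1.5-fold, 5 were higher (16.1%), against 8.92% of all genes, and none was lower, against 5.5%. Psap had 862 CPM in AKK and 493 CPM in PBS (1.75, 1.67 to 1.83), Ctsh 120 and 73.4 CPM (1.64), Npc1 30.5 and 19.3 CPM (1.58), Ctss 164 and 105 CPM (1.57), and Ctsc, cathepsin C, which activates the serine proteases of neutrophil granules, 434 and 288 CPM (1.51, 1.41 to 1.61). Of all genes in this class 65.5% were higher in AKK, with a median log2 ratio of 0.11, and relative to that median the ratios of Npc1, Ctss and Ctsc were 1.46, 1.45 and 1.39, short of the limit.

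In T-like cells the share was level, and 4 of 30 members were lower past 1.5-fold (13.3%), against 6.38% of all genes, and none higher, against 4.33%. These were Ctsl, Lgmn (16.2 and 26.7 CPM), Cd63 (5.65 and 8.54 CPM) and Cd68 (4.84 and 10.7 CPM), all genes with far higher levels in macrophage-like cells. Free macrophage RNA scaled from C1q would supply 51.1% of the T-like Lgmn level in AKK and 60.8% in PBS, and 26.2% and 24.2% of Cd68. For Ctsl the shares were 29.6% and 27.4%, and for Cd63 19.1% and 28.6%.

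Other genes of the pathway, from lists that share no member with the 33, were read in the 3 main classes. Of all genes measured, 7.63% were higher and 6.94% lower past 1.5-fold in macrophage-like cells. The shares were 13.6% and 7.97% in monocyte-like and 8.26% and 4.46% in neutrophil-like cells. None of the 14 measured other V-ATPase subunits passed 1.5-fold in macrophage-like, monocyte-like or neutrophil-like cells, with median log2 ratios of 0.09, 0.04 and 0.01. Nor did any of the 16 autophagy genes in macrophage-like or neutrophil-like cells, with medians of 0.037 and -0.075. Among 13 genes of lysosome signalling and MiT regulation, 12 were measured in macrophage-like cells and 2 were lower past the limit, with a list median of -0.052. They were Gpnmb, a glycoprotein that MITF controls in melanocytes, with 6.31 CPM in AKK and 26.2 CPM in PBS (0.240, 0.173 to 0.328), and Fnip2, a partner of folliculin in the nutrient signalling that holds TFEB and TFE3 in the cytoplasm, with 189 and 383 CPM (0.492, 0.463 to 0.522). In monocyte-like cells Fnip2 was lower again, with 233 CPM in AKK and 586 CPM in PBS (0.398, 0.371 to 0.427). So was Igf2r, the receptor that delivers mannose-6-phosphate tagged enzymes to lysosomes, with 10.2 and 39.5 CPM (0.259, 0.185 to 0.358).

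Of 32 other lysosomal hydrolases measured in macrophage-like cells, 2 were higher and 3 lower past the limit, with a median log2 ratio of -0.12. Plbd1, a phospholipase B-like enzyme, had 470 CPM in AKK and 283 CPM in PBS (1.66, 1.58 to 1.74), Pld3, an exonuclease of lysosomal nucleic acids, 36.0 and 58.6 CPM (0.614), and Acp5, the tartrate-resistant phosphatase of osteoclasts, 227 and 362 CPM (0.627, 0.592 to 0.664). In monocyte-like cells 3 of 31 were higher and 1, Acp5, was lower (17.4 and 40.0 CPM), with a median of 0.16. In neutrophil-like cells 2 of 31 were higher and none lower, with a median of 0.057. Of the osteoclast and giant cell genes, 2 of 8 were higher in macrophage-like cells and Acp5, which stands on both lists, was lower, with a median of 0.021. Dcstamp, needed for cell fusion, had 84.8 CPM in AKK and 44.0 CPM in PBS (1.93, 1.71 to 2.17).

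Among 32 other membrane and transport genes in macrophage-like cells only Cln3, a lysosomal membrane protein lost in juvenile Batten disease, passed the limit, with 46.2 CPM in AKK and 83.3 CPM in PBS (0.554, 0.488 to 0.628); the list median was -0.017. In monocyte-like cells 4 of 29 were lower, among them the tetraspanin Cd9, with 234 and 445 CPM (0.525, 0.488 to 0.566), at a list median of 0.021. Of 12 sorting genes in macrophage-like cells 1 was higher and Igf2r was lower, with 9.26 and 17.6 CPM, at a list median of 0.076. Among the inhibitors of cysteine proteases, 2 of 6 were lower in neutrophil-like cells, Stfa2 (23.3 CPM in AKK and 107 CPM in PBS) and Stfa3 (11.9 and 33.4 CPM), at a list median of -0.30. Their family has near-identical copies between which UMIs may be split, so both values are uncertain. None of the 3 inhibitors measured in macrophage-like cells and none of the 2 in monocyte-like cells passed the limit.

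The remaining counts were small. In monocyte-like cells 1 of 16 autophagy genes was higher, Atg16l1 (56.7 CPM in AKK and 36.0 CPM in PBS), and 1 lower; 1 of 12 signalling genes was lower, Fnip2, and 1 of 11 sorting genes was lower, Igf2r. Of 6 osteoclast and giant cell genes there 1 was higher, Nfatc1 (62.9 and 40.7 CPM), and 2 were lower. In neutrophil-like cells 1 of 31 membrane and transport genes was higher and none lower, 1 of 12 sorting genes was higher and 1 lower, 1 of 13 signalling genes was lower, and none of 5 osteoclast and giant cell genes passed the limit. Across these 8 counts the median log2 ratio of a list lay between -0.051 and 0.064, except for the osteoclast and giant cell genes in monocyte-like cells, at -0.43.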

How the data were processed

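Sorted CD45+ cells of AKK and PBS liver tumours were profiled with 10x Genomics 3′ v3 chemistry, per the labels' protocols. The deposited matrices hold raw UMI counts per gene and barcode, not normalized. Their headers name Cell Ranger 7.1.0 as the writer; version 5.0.1 and the build mm10 stand in the submitters' processing notes. Neither source says whether intronic reads were counted, so a level may include them. Of 32285 gene identifiers, 32235 (99.8%) were found in GENCODE M21 on GRCm38, which gave coordinates.

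Barcodes with at least 200 genes and under 15% mitochondrial UMIs were kept. Doublets were scored with Scrublet in scanpy 1.11.5; its automatic threshold marked 1.01% of AKK and 0.0786% of PBS barcodes and was not used, and the highest scores, 0.8% per 1000 barcodes, were removed instead (345 AKK and 197 PBS). Cells of both libraries were clustered together (2000 variable genes without the members and the 8 other lists, 30 components, 15 neighbours, Leiden resolution 1.0, and 2.0 for the finer clusters). Clusters were named from 23 marker sets by their mean log2 ratio (minimum 1.0, at least 3 markers detected in 20% of cells).

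UMIs were summed per class and library. Ratios have exact conditional binomial (Clopper-Pearson) 95% intervals and shares have exact binomial ones; both cover counting error only. Class totals behind the values were 7452836 AKK and 11133731 PBS UMIs in macrophage-like, 4883801 and 4255222 in monocyte-like, and 11846565 and 11850637 in neutrophil-like cells. Shares of cells with a UMI were computed after thinning each cell to the depth named; shallower cells were left out (61 AKK and 54 PBS macrophage-like, 53 and 20 monocyte-like, 292 and 173 neutrophil-like). The ratio and its call were tested on simulated counts. TMM factors came from edgeR 4.0.16. Values of both libraries are written for members past 1.5-fold in a main class and for those giving the most UMIs; from the other lists at most 4 genes with the largest change and at least 200 UMIs are named. Members short of 1.5-fold that are named with values in macrophage-like or monocyte-like cells, such as Ctsb, Cd63 and Grn, and the levels in other classes and in finer clusters were chosen after their values were seen. The members and lists were chosen with earlier results of these data known.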

Additional observations from a re-analysis of the deposited data

Results flagged for a closer look

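Atp6v0d2, the inducible d2 subunit of the V-ATPase, had log2 CPM ratios of opposite sign in 2 classes: -1.01 in macrophage-like cells (15.2 CPM in AKK and 30.4 CPM in PBS) and 0.87 in neutrophil-like cells (20.2 CPM in AKK and 11.1 CPM in PBS). The difference between the classes was not tested, since each has 1 library per group. Over the alternatives the log2 ratio ran from -1.91 to -0.49 in macrophage-like cells, past 1.5-fold in 11 of 13. In neutrophil-like cells it ran from 0.38 to 1.07, past 1.5-fold in 11 of 12. Inside macrophage finer clusters 1 and 2 the ratios were 0.904 and 0.930, with intervals that included 1. The UMIs of Atp6v0d2 came mostly from few finer clusters in both classes. The numbers of AKK and PBS cells in such clusters differ: 57 and 184 in macrophage finer cluster 1, and 256 and 115 in neutrophil finer cluster 29.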

How the results depend on the processing

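The log2 ratios of the summed share were -0.15, 0.088 and 0.037 in macrophage-like, monocyte-like and neutrophil-like cells, with 0, 2 and 3 members higher and 1, 4 and 1 lower past 1.5-fold. Alternatives not named for a class left its share or count close to these. TMM scaling gave shares of -0.26, -0.026 and -0.021. It left 4 macrophage members lower (9.22% of all genes were) and 1 monocyte member higher (9.25% of all genes were). Median-of-ratios scaling gave -0.26, -0.057 and -0.029, with 4 lower (9.32%) and 0 higher (8.39%). The finer clusters weighted alike, an alternative chosen after seeing the data, gave 0.041, 0.14 and 0.069. In each class 0 members were then lower, against 6.02%, 12% and 5.61% of all genes. In monocyte-like cells 4 members were higher, against 15.1% of all genes. The median macrophage member then stood at 0.033 and Tfeb in monocyte-like cells at -0.38. Clustering each library alone gave shares of -0.45 for macrophage-like and 0.059 for monocyte-like cells. With it 7 macrophage members were lower (9.51% of all genes were) and 0 monocyte members were higher (14.9% of all genes were). Lgmn in monocyte-like cells stood at -0.047. Resolution 2.0 gave -0.26 and 0.037, with 8 lower (8.07% of all genes were) and 1 higher (13.5% of all genes were). A class set from each cell's marker score gave -0.066 and 0.049, with 0 lower (6.42% of all genes were) and 0 higher (11.9%). A minimum of 1000 UMIs gave -0.18 and 0.039, with 3 lower (7.16% of all genes were) and 1 higher (12.3%). For macrophage-like cells, a 10% mitochondrial limit gave -0.18, no doublet removal -0.17, and clustering on the members too -0.17. Each left 2 members lower (7.15%, 6.63% and 7.23% of all genes were). The first and the last left 0 monocyte members higher (11.7% and 10.2% of all genes were). Weighting each cell alike gave -0.10, with 1 macrophage member higher (11% of all genes were), and 0.018 in neutrophil-like cells. Weighting the clusters alike gave -0.13 in macrophage-like cells. Leaving out the shallow macrophage cluster, also added later, gave 2 members lower (7.04% of all genes were). A 2-fold limit left 0 higher and 1 lower in monocyte-like cells (3.22% and 3.3% of all genes were). In neutrophil-like cells it left 1 higher and 0 lower (2.07% and 1.02% of all genes were). The cause of these shifts was not tested. No paired analysis was possible because each group has 1 library. Members under 50 UMIs in a class, such as Ctsk and Atp6v0d2 in monocyte-like cells, are limited by depth.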
